A study of Mus musculus with 4 samples.

Results

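Plasma cells of the aged mouse kidney were selected from single-cell transcriptomes by their own genes, and 419 of 50605 cell barcodes were selected. A barcode counted if it held at least 50 unique molecular identifiers (UMIs, each standing for 1 captured transcript) of Igkc and Jchain together and at least 3 of the 6 genes Mzb1, Derl3, Prdm1, Txndc5, Eaf2 and Tnfrsf17. It also had to lack Siglech, Cd3d, Cd3e and Cd3g and to hold at most 3 UMIs of the tubule genes Lrp2 and Slc34a1. The kidneys came from male C57BL/6 mice of 19 months, given for 1 month either BPTES, a small-molecule inhibitor, or its vehicle DMSO, with 2 libraries in each group. Each library was made from 20000 CD45- and 9000 CD45+ cells of 1 tissue, sorted after enzymatic digestion, so that shares of cells are shares of this mixture. The labels do not say whether the libraries of a group came from separate animals, so p-values measure the spread between these samples.

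Plasma cells are the end stage of the B lineage and secrete antibody. Blimp-1, encoded by Prdm1, shuts off the B cell programme. XBP1, a factor of the unfolded protein response, enlarges the endoplasmic reticulum (ER) in which antibody chains are folded and assembled. The J chain, encoded by Jchain, joins IgA and IgM into polymers that epithelia can carry to mucosal surfaces. Long-lived plasma cells settle in the bone marrow and in tissues, where survival signals reach them through receptors such as BCMA, the product of Tnfrsf17.

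The libraries held 296360271 and 249881074 UMIs (BPTES) and 297947661 and 296928739 UMIs (DMSO), and 11686 to 13130 barcodes per library passed the filters. Any pair of libraries shared 90 to 114 barcodes. Free RNA reached other cells: in T cells, which should lack it, Igkc was found in 98.5% and 99.4% of BPTES cells with a median of 5 and 6 UMIs, and in 69.1% and 69.7% of DMSO cells with a median of 1 UMI, at median depths of 13334 to 14869.5 UMIs. Immunoglobulin genes and Jchain (393 genes) were therefore left out of every expression profile below.

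BPTES 1 and 2 held 152 and 158 selected cells, DMSO 1 and 2 held 51 and 58. They made up 1.26% ± 0.137 (SD, n = 2) of the passing barcodes under BPTES and 0.423% ± 0.0490 (SD, n = 2) under DMSO, a ratio of 2.97. Among barcodes with Ptprc (the CD45 gene) or selected, the shares were 2.77% and 3.12% against 0.877% and 1.11%. Both BPTES libraries lay above both DMSO libraries, and exact 95% binomial intervals did not overlap between the groups (0.983 to 1.36 and 1.15 to 1.58% against 0.289 to 0.510 and 0.348 to 0.591%). The exact two-sided permutation test gave p = 0.3333, the smallest value that 2 against 2 libraries allow. These intervals cover counting error only. The rise in the share of plasma cells was already known from earlier results of these data, so these values describe it and are no independent test.

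The selected cells did not form 1 even population. In 261 cells, at least 10% of all UMIs came from immunoglobulin genes and Jchain, and these are called high-share cells. The other 158 are called low-share cells. The line at 10% was drawn after seeing the data and cuts a range: 76 cells lay below 1%, 66 between 1 and 3%, 6 between 3 and 5%, 10 between 5 and 10%, 10 between 10 and 20%, 52 between 20 and 40%, 85 between 40 and 60% and 114 above 60%. At the line itself, 10 cells lay between 5 and 10% and 10 between 10 and 20%. At the selection threshold, 16 selected cells held 50 to 59 UMIs of Igkc and Jchain, and 14 barcodes that met the other criteria held 40 to 49.

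**Figure D1:**
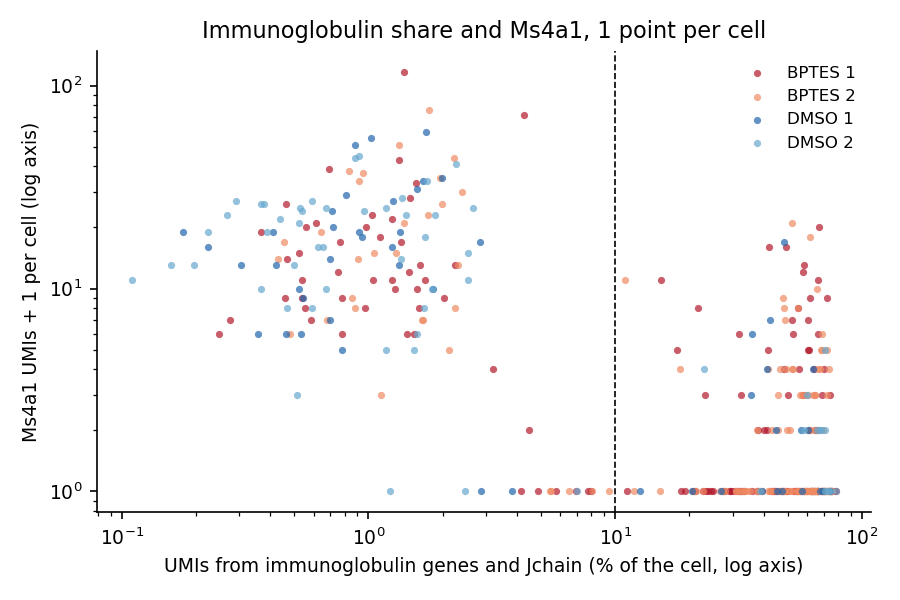
Each point is 1 selected cell, with the percentage of its UMIs from immunoglobulin genes and Jchain on the x axis (log scale) and its UMIs of the B cell gene Ms4a1 plus 1 on the y axis (log scale). Colours mark the library and the dashed line stands at 10%. Cells left of the line mostly carry Ms4a1 (142 of 158 have at least 1 UMI). Of the cells right of it 92 of 261 have at least 1. By library these are 35.0% and 31.0% in BPTES 1 and 2 and 47.4% and 61.5% in DMSO 1 and 2.

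Cells on either side of the line also differed in Ms4a1, a B cell surface gene that neither the rule nor the line used. Jchain and the rule genes chose the cells or the line, so their levels are a description only. Per library, the median high-share cell held 54.6%, 58.7% (BPTES), 45.4% and 68.0% (DMSO) of its UMIs from immunoglobulin genes and Jchain, and 2101, 3467, 1044 and 2731 UMIs of Jchain. The median depth was 53792 to 80970 UMIs in high-share cells and 15844 to 25876 UMIs in low-share cells. In low-share cells the median was 0 or 1 UMI of Jchain and 10 to 17 UMIs of Ms4a1, against a median of 0 or 1 UMI of Ms4a1 in the deeper high-share cells. At least 1 UMI of Ms4a1 was found in 35.0% and 31.0% of high-share cells under BPTES and in 47.4% and 61.5% under DMSO. Among the markers that the rule did not use, Ms4a1 and the Xbp1 and Sdc1 levels that follow went with the label plasma cells in high-share cells and against it in low-share cells, while the wider list of identity and homing genes, counted below, was mixed.

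Other genes that the selection did not use are given as a description with no test, since the split was chosen on these cells. Levels are in CPM, the usual scaling of counts to a fixed total, here taken over the non-immunoglobulin UMIs of the summed cells, in the order BPTES 1, BPTES 2, DMSO 1 and DMSO 2. Xbp1, the master regulator of the secretory programme, stood at 1619, 1601, 1736 and 1944 CPM in high-share cells and 100.1, 65.5, 48.1 and 73.1 CPM in low-share cells. Sdc1, the surface marker CD138, stood at 254, 239, 225 and 222 CPM against 13.1, 7.8, 4.38 and 2.63 CPM. Prg2, which encodes a granule protein, stood at 681, 723, 585 and 1149 CPM against 6.57, 0, 0 and 0 CPM. In each of these genes the lowest high-share library was far above the highest low-share library. Slpi, an inhibitor of leukocyte proteases, stood at 2879.6, 3319.6, 2597 and 3385 CPM against 128, 3.12, 53.6 and 8.56 CPM, and Cd28, a costimulatory receptor that plasma cells share with T cells, at 57.8, 85.7, 43.8 and 83.8 against 4.1, 9.36, 4.38 and 1.32 CPM. Irf4, a transcription factor of both stages, differed less, with 329, 319, 412 and 378 CPM against 254, 239, 236 and 151 CPM.

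By gene list, 34 of 34 secretory genes were higher in the high-share cells of every library, against 24.4% of all 9634 genes compared. Of 30 identity and homing genes 15 were higher in the high-share cells of every library, 4 were lower in every library and 11 were mixed, with Cd38, Cd93, Itga4, Klf2 and Ly6d among the 15 that were not higher. Higher in every library were 27 of 29 ER folding genes, with Ddit3 and Ero1lb as the exceptions, 24 of 27 nuclear genes of the respiratory chain and 14 of 21 genes of the amino acid stress response driven by ATF4. Of 24 B cell and MHC class II genes, 21 were lower in the high-share cells of every library, against 23.1% of all genes. The medians over these lists were 2.04 (secretory), 2.14 (ER), 0.78 (respiratory chain), 1.10 (ATF4) and -2.45 (B cell and MHC class II) on the log2 scale, against -0.03 over all genes. Pycr1, a proline synthesis enzyme, had 84.2, 86.7, 83.6 and 79.3 CPM in high-share cells and 0 UMIs in low-share cells of all 4 libraries.

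Nearly all of the difference in number between BPTES and DMSO lay in the high-share cells. BPTES 1 and 2 held 103 and 126 of them and DMSO 1 and 2 held 19 and 13, or 0.932% ± 0.207 (SD, n = 2) against 0.124% ± 0.0298 (SD, n = 2) of the passing barcodes, a ratio of 7.54. Low-share cells numbered 49 and 32 against 32 and 45, or 0.324% ± 0.0705 against 0.299% ± 0.0787 (SD, n = 2), a ratio of 1.08. The first pair of groups did not overlap and the other did, with exact permutation p = 0.3333 and p = 0.667. The high-share part of the selected cells was thus 67.8% and 79.7% (BPTES) against 37.3% and 22.4% (DMSO). The log2 ratio of the high-share percentages was 2.91, and 2.90 with a 20% line in place of 10%. Predicted doublets are the barcodes of highest Scrublet score in each library, up to a number set in advance. They were 17 of the 19 high-share cells of DMSO 1, against 2 of 13 in DMSO 2 and 17 of 103 and 27 of 126 in BPTES 1 and 2. Without predicted doublets the log2 ratio was 3.88, on 86 and 99 against 2 and 11 cells, and it was 2.56 to 3.88 over all alternatives. Without the exclusions for tubule, T cell and Siglech UMIs, 299 and 283 BPTES barcodes and 116 and 118 DMSO barcodes met the rule.

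IgA cells accounted for most of the additional high-share cells. A cell was assigned to a heavy-chain class if that class held at least 70% of at least 10 constant-region UMIs. BPTES 1 and 2 held 60 and 99 IgA high-share cells, each DMSO library held 3, which is 0.652% ± 0.276 against 0.0233% ± 0.000583 (SD, n = 2) of the passing barcodes and a ratio of 28.04. Without predicted doublets they numbered 48 and 79 against 0 and 2, and with no UMI of Lrp2 and Slc34a1 allowed 11 and 25 against 0 and 0. IgM high-share cells numbered 28 and 19 against 14 and 9, a ratio of 2.12 in their share of the passing barcodes. Without predicted doublets the IgM cells numbered 24 and 12 against 2 and 8. IgG high-share cells were few, with 7 and 5 against 2 and 1, and 8, 3, 0 and 0 high-share cells stayed without a class. Within the high-share cells, 58.3% and 78.6% were IgA with BPTES against 15.8% and 23.1% with DMSO, and IgM 27.2% and 15.1% against 73.7% and 69.2%. The groups did not overlap in either class, and each exact permutation test gave the smallest possible p = 0.3333. Free Igha transcripts followed the same order, with a UMI in 81.8% and 94.1% of T cells under BPTES and in 21.0% and 12.1% under DMSO. The median high-share cell of the BPTES libraries held 4613 and 8968 UMIs of Igha, against a median of 2 and 3 in their T cells.

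**Figure D2:**
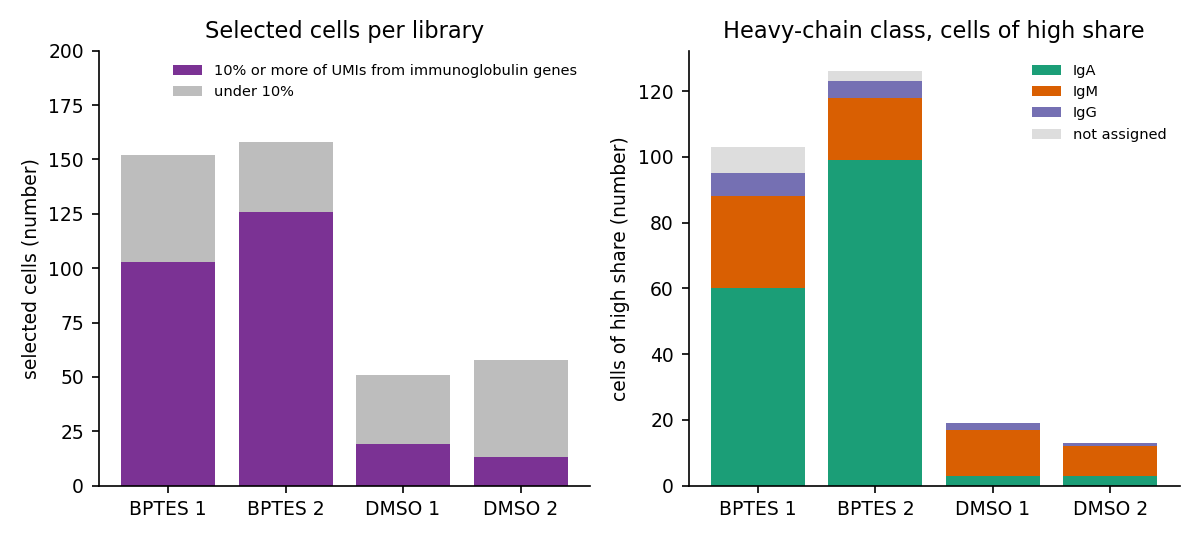
Bars give the number of selected cells per library, split by immunoglobulin share (left), and the number of high-share cells per library, split by heavy-chain class (right). The BPTES libraries held 103 and 126 high-share cells, of which 60 and 99 were IgA. The DMSO libraries held 19 and 13, of which 3 and 3 were IgA.

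The transcripts of all selected cells were compared between BPTES and DMSO next, to see which gene lists differed. Most genes of antibody folding and secretion that were tested were higher under BPTES, while 15 of 24 genes of the B cell and MHC class II list and 8 of 20 cell cycle genes were lower. Of 11072 genes tested, 743 were called (6.71%), of which 413 were higher (3.73%) and 330 lower (2.98%) under BPTES (edgeR's quasi-likelihood test on UMIs summed per library, adjusted p under 0.05). Of 29 ER folding genes tested, 22 were higher and 0 lower, with a median log2 fold change of 1.15. Of 34 secretory genes, 25 were higher and 0 lower, with a median of 0.89. The median over all genes was -0.0067. Beside these values stands the mix of cells: high-share cells were 73.8% of the selected cells under BPTES and 29.8% under DMSO, and its part in the result was not tested. The 6 rule genes had served to select the cells of both groups. They are left out of these and all later list counts, except those of the promoter search.

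Hspa5, the main ER chaperone BiP, stood at 2598 and 2933 CPM in BPTES 1 and 2 and at 1105 and 1266 CPM in DMSO 1 and 2 (log2 fold change 1.22 with SE 0.14, edgeR adjusted p = 0.00974). Herpud1, a scaffold of ER-associated degradation, stood at 907 and 1049.7 CPM in BPTES 1 and 2 and at 304 and 369.8 CPM in DMSO 1 and 2 (log2 fold change 1.54, SE 0.16). Pdia4, which forms disulfide bonds, rose by 1.41 (SE 0.16) and Creld2, a secreted ER stress protein, by 1.51 (SE 0.15) on the log2 scale. In none of these genes did the groups overlap, which was the case for 55.2% of all genes tested in either direction. In the secretory list, Sec11c, the catalytic subunit of the signal peptidase, stood at 1368 and 1786 CPM in BPTES 1 and 2 and at 632 and 463 CPM in DMSO 1 and 2 (log2 fold change 1.53 with SE 0.20, edgeR adjusted p = 0.0125). Lman1, a cargo receptor from the ER to the Golgi, stood at 366 and 465 against 155 and 128 CPM (1.56, SE 0.18). Of these 6 genes Lman1 kept its call in all 15 alternatives, and the other 5 lost it with at least 200 UMIs of Igkc and Jchain, with no UMI of Lrp2 and Slc34a1, or with either. The first of these settings kept 7, 4, 7 and 6 low-share cells in the 4 libraries. In high-share cells alone Lman1 stood at 481 and 510 against 392 and 404 CPM. It was not called there (log2 fold change 0.32 with SE 0.14, edgeR adjusted p = 0.53).

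Of 29 identity and homing genes tested, 10 rose and 4 fell. Xbp1 stood at 1207 and 1449 CPM in BPTES 1 and 2 and at 631 and 493 CPM in DMSO 1 and 2 (log2 fold change 1.24 with SE 0.17, edgeR adjusted p = 0.0127), and Sdc1 at 189 and 216 against 80.6 and 51.9 CPM (1.63, SE 0.20). Runx2, a transcription factor best known from bone, rose by 1.84 (SE 0.18). Each of these genes was higher in both BPTES libraries than in both DMSO libraries. Runx2 kept its call in all 15 alternatives, while Xbp1 (0.34 to 2.25 over the alternatives) and Sdc1 (0.65 to 2.60) lost theirs both with at least 200 UMIs of Igkc and Jchain and with no UMI of Lrp2 and Slc34a1. Ccr10, a homing receptor of mucosal IgA plasma cells, stood at 112 and 259 CPM in BPTES 1 and 2 and at 8.96 and 16.3 CPM in DMSO 1 and 2, which did not pass after adjustment (3.83, SE 0.65, edgeR adjusted p = 0.058). Irf4 did not pass either, with 310.4 and 320.4 against 291 and 202 CPM (edgeR adjusted p = 0.275). Cd38, an NAD-consuming ectoenzyme, fell from 129 and 116 CPM under DMSO to 48.5 and 31.6 CPM under BPTES (log2 fold change -1.61 with SE 0.21, edgeR adjusted p = 0.0125), a call lost in the first of these settings and with thinned cells. By class in high-share cells, Runx2 stood at 121 and 104 against 99.5 and 71.0 CPM in IgA cells without TMM scaling. The DMSO values there rest on 3 cells each. In IgM cells Runx2 stood at 7.51 and 24.8 against 16.1 and 26.8 CPM. The part of the class mix in its call was not tested.

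Of 21 ATF4 genes tested, 4 rose and 1 fell. Atf5, a transcription factor of that response, stood at 48.5 and 40.1 CPM in BPTES 1 and 2 and at 7.58 and 6.1 CPM in DMSO 1 and 2 (log2 fold change 2.71 with SE 0.26, edgeR adjusted p = 0.00744), and Asns, asparagine synthetase, at 32.5 and 32.5 against 10.3 and 7.12 CPM (1.92, SE 0.26). Slc3a2, the heavy chain of amino acid exchangers, rose by 1.15 (SE 0.16). In the glutamine list 1 of 20 genes rose and 1 fell, with a median of 0.03. The B cell and MHC class II list fell in 15 of 24 genes and rose in 0, with a median of -0.94. Cd22, an inhibitory B cell receptor, stood at 82.6 and 52.6 CPM in BPTES 1 and 2 and at 226 and 225 CPM in DMSO 1 and 2 (log2 fold change -1.74 with SE 0.21, edgeR adjusted p = 0.0125), and H2-DMb2, which loads peptides onto MHC class II, at 124 and 101 against 333 and 343 CPM (-1.59, SE 0.15). The call of Cd22 was lost without DMSO replicate 2 and with at least 200 UMIs of Igkc and Jchain. With no UMI of Lrp2 and Slc34a1, Atf5, Asns, Slc3a2 and H2-DMb2 were not called, and at 200 UMIs Asns and Slc3a2 were not, nor was Slc3a2 without predicted doublets. The summed B cell markers (8 of 8 detected) stood at 1519 and 1023 CPM under BPTES and 2470.1 and 2799 CPM under DMSO. The summed macrophage markers (8 of 8 detected) stood at 5381 and 4461 CPM under BPTES and 5286 and 10433 CPM under DMSO. More than 50 UMIs of C1qa, C1qb, C1qc and Lyz2 together were held by 29.6% and 29.1% of selected cells under BPTES and 43.1% and 34.5% under DMSO. The part of either marker group in the result was not tested.

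Of 20 cell cycle genes 8 fell and 0 rose, with a median of -1.5. Nusap1, a spindle protein, was counted with 12 UMIs in each BPTES library but with 77 and 41 in DMSO 1 and 2, and its call was lost without either BPTES replicate and without predicted doublets (edgeR adjusted p up to 0.124). Mcm3, of the replicative helicase, stood at 15.8 and 19.8 against 46.2 and 53.9 CPM (log2 fold change -1.49 with SE 0.21, edgeR adjusted p = 0.0127), a call lost at both of those settings. With each cell thinned to 2000 non-immunoglobulin UMIs, 4, 3, 5 and 2 selected cells expressed at least 3 of 12 cycle genes, and their part in these falls was not tested. The largest fall of all named genes, that of the chemokine Ccl17 (log2 fold change -6.73), came from 1 high-share cell of DMSO 1 with 182 UMIs and 3 low-share cells of DMSO 2 with 423 UMIs. Chchd10, a protein of the mitochondrial intermembrane space, rose by 1.86 (SE 0.21). The count of called genes depended on single libraries: it was 383 and 95 without BPTES replicate 1 or 2, and 1258 and 369 without DMSO replicate 1 or 2.

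Several of the ER genes share a known promoter element, the ER stress response element bound by ATF6 and XBP1 together with NF-Y, and their upstream sequences are shown to make the group concrete. Its letters, CCAAT and CCACG with 9 bases of any kind between them, were searched on both strands in the 250 bases before the start of each gene (RefSeq, GRCm38.p6), and found for 10 of 29 matched ER folding genes (Calr, Canx, Creld2, Derl3, Dnajc3, Ero1b, Hsp90b1, Hspa5, Pdia6 and Syvn1). This count covers the whole list with its rule genes, Derl3 among them, so its 29 genes are not the same as the 29 tested. The letters were found for 33 of all 27025 genes (0.122%) and for 0 genes of every other list. The shorter element TGACGTGG, which can overlap it, was found for 1 ER gene (Txndc11), 2 secretory genes (Kdelr3 and Sec24d), 1 gene each of the identity (Pou2af1), glycolysis (Hk2), survival (Xiap) and NF-kB (Tnfaip3) lists and 136 of all genes (0.503%). A match is a description of the letters, not of binding. The windows below leave out Calr, Canx, Hsp90b1 and Ero1b, of which Canx and Ero1b were not called under BPTES in all selected cells. Windows of 80 bases per gene are given 5′ to 3′ in the direction of the gene, with the element in capitals, for chr2:34771995-34772074, chr12:17266476-17266555, chr14:118937812-118937891, chr15:88819505-88819584, chr10:75893227-75893306 and chr19:6046481-6046560, all on the plus strand.
Hspa5: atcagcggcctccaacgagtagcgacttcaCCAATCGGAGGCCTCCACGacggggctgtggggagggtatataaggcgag
Pdia6: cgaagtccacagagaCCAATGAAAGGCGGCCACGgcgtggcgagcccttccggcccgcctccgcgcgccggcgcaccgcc
Dnajc3: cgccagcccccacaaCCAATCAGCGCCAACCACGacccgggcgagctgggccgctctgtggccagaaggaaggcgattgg
Creld2: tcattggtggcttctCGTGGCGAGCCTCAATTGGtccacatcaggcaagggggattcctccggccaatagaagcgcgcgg
Derl3: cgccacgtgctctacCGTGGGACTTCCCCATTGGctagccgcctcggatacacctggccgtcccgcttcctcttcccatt
Syvn1: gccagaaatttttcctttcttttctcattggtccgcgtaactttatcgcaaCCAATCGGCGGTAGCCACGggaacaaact

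The element reads in 1 orientation in Hspa5, Pdia6, Dnajc3 and Syvn1 and in the other in Creld2 and Derl3. Derl3 also served to select the cells, and its values are left out here. In all selected cells 7 of the other 9 genes with the element were called higher under BPTES, beside 22 of 29 ER folding genes as a whole and 3.73% of all genes, with log2 fold changes of 1.22 (Hspa5), 0.85 (Pdia6), 1.41 (Dnajc3), 1.51 (Creld2), 1.15 (Syvn1), 1.47 (Hsp90b1) and 0.63 (Calr). The other 2, Canx (0.29) and Ero1b (0.14, listed as Ero1lb in the counts), were not called. Leaving out BPTES replicate 2 ended the calls of Pdia6, Syvn1 and Calr, and that of Calr, lost in 8 of 15 alternatives, also ended without BPTES replicate 1 or DMSO replicate 1. With no UMI of Lrp2 and Slc34a1 none of the 7 was called. In high-share cells alone the same genes in the same order had 0.96, 0.01, 0.37, 0.19, 0.40, 0.32, 0.02, 0.07 and 0.22, and none was called. In high-share cells Hspa5 had the highest of these 9 values, and the differences between genes were not tested.

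The same comparison within the high-share cells asked whether individual plasma cells differed between BPTES and DMSO. The median fold change of the secretory genes was near 0, and 1 of 9944 genes passed (0.0101%), with 963 at an unadjusted p under 0.05. DESeq2 called 37 genes, and edgeR called 12 to 69 with 1 library left out. The DMSO sums were small, 502159 and 441383 non-immunoglobulin UMIs from 19 and 13 cells, of which 1 cell supplied 18.8% and 28.4%. As given above, 17 and 2 of these cells were predicted doublets, and their part in the values was not tested. The gene that passed was S100a9, a neutrophil protein, at 169.5 and 159 CPM in BPTES 1 and 2 and at 9.8 and 9.67 CPM in DMSO 1 and 2 (log2 fold change 4.06 with SE 0.27, edgeR adjusted p = 0.00227). In each BPTES library 3 cells held nearly all of it, 522 of 546 and 598 of 640 UMIs, and the summed neutrophil markers (5 of 5 detected) stood at 328 and 383 CPM against 41.8 and 18.1 CPM. With predicted doublets removed, 2 and 11 DMSO cells were left, and S100a9 had a log2 fold change of 1.58 and was not called (edgeR adjusted p = 0.875).

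Of 29 ER folding genes 0 were called, with a median log2 fold change of 0.20 and 7 at an unadjusted p under 0.05. Of 34 secretory genes 0 were called, with a median of -0.0075 and 0 at an unadjusted p under 0.05. Xbp1 stood at 1599 and 1602 CPM in BPTES 1 and 2 and at 1709 and 2075 CPM in DMSO 1 and 2 (log2 fold change -0.24 with SE 0.17, edgeR adjusted p = 0.695). Sdc1 stood at 251 and 239 against 221 and 237 CPM, with a log2 fold change of 0.10 (SE 0.15). A missed threshold does not show that these levels are equal. Hspa5 differed more, at 3224 and 3123 CPM in BPTES 1 and 2 and at 1678 and 1591 CPM in DMSO 1 and 2 with no overlap, but it did not pass (log2 fold change 0.96 with SE 0.16, edgeR adjusted p = 0.131). Groups did not overlap in 41.9% of all genes tested. Dnajb9, a cochaperone of BiP, stood at 208 and 275 against 112 and 147 CPM (0.91, SE 0.21, edgeR adjusted p = 0.289).

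Ly6d, a GPI-anchored lymphocyte antigen, stood at 1081 and 1184 CPM in BPTES 1 and 2 and at 498 and 481 CPM in DMSO 1 and 2 (log2 fold change 1.21 with SE 0.16, edgeR adjusted p = 0.057). It passed in 9 of 16 alternatives, among them each of the 4 with 1 library left out, while Hspa5 passed in 4, Ccr10 in 5 and Egr1 in 5 of 16. Atf5 stood at 64.6 and 43.8 against 15.7 and 14.5 CPM (1.83, SE 0.38, edgeR adjusted p = 0.231), on 8 and 6 UMIs in the DMSO sums, and Asns at 44.1 and 36.2 against 29.4 and 29 CPM (0.45, SE 0.28). Ccr10 stood at 151 and 287 against 25.5 and 75 CPM (2.18, SE 0.56, edgeR adjusted p = 0.411). Beside the values of Ly6d and Ccr10, IgA cells made up 68.4% of the high-share cells under BPTES and 19.4% under DMSO. Both genes were higher in IgA than in IgM cells of the BPTES libraries, and in IgM cells alone Ly6d overlapped between the groups, as given further on. Ccr10 in IgM cells stood at 3.75 and 10.6 against 10.7 and 35.7 CPM without TMM scaling. These rest on 3, 6, 4 and 8 UMIs, too few for a comparison. In IgA cells, 3 in each DMSO library, Ly6d stood at 1571 and 1314 against 763 and 375 CPM without TMM scaling. Ccr10 stood there at 221 and 350 against 99.5 and 117 CPM. The part of the class mix in the values of either gene was not tested. Of 18 immediate early genes, which respond to cell handling, 14 had negative fold changes and 0 passed, with a median of -0.66. Egr1 stood at 131 and 87.4 against 304 and 346 CPM (log2 fold change -1.57 with SE 0.22, edgeR adjusted p = 0.0746) and Jun at 1683 and 1077 against 2775 and 2469 CPM (-0.93, SE 0.23). Mki67, a mark of cycling cells, stood at 59.9 and 64.7 against 557 and 53.2 CPM (-2.32, SE 1.04), so that DMSO 1 alone was high.

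**Figure D3:**
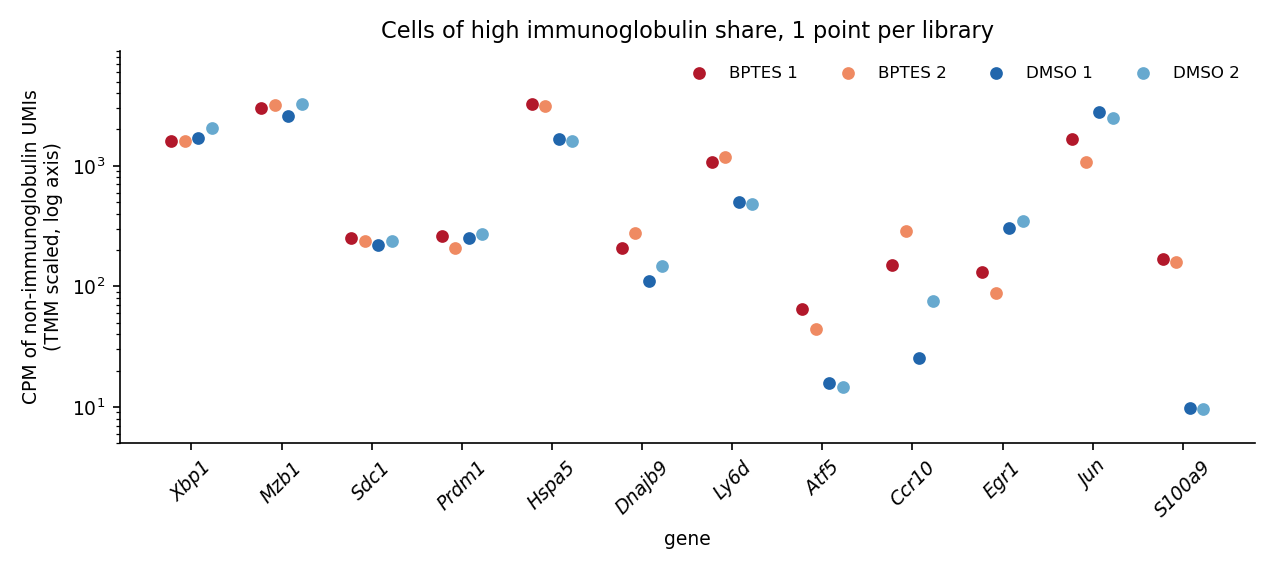
Each point is the CPM of non-immunoglobulin UMIs (log axis, scaled by TMM factors) of 1 gene in the summed high-share cells of 1 library. The points of Xbp1, Mzb1, Sdc1 and Prdm1 lie close together, BPTES lies above DMSO for Hspa5, Dnajb9, Ly6d, Atf5, Ccr10 and S100a9 and below it for Egr1 and Jun. Mzb1 and Prdm1 served to select the cells. Of the genes plotted, S100a9 alone passed the test.

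Because IgA and IgM cells differ in number between the groups, IgM high-share cells were also compared alone (28 and 19 against 14 and 9 cells). Of 6549 genes 1 passed (0.0153%), S100a9 (444 and 582 against 11 and 5.12 CPM), with 462 at an unadjusted p under 0.05 and 4 called by DESeq2. With 1 library left out 44 to 594 genes passed, S100a9 among them each time. Without predicted doublets 0 genes passed, and S100a9 fell below the low-count filter. With the replicate number as a block S100a9 lost its call as well. Hspa5 stood at 2884 and 3756 CPM in BPTES 1 and 2 and at 1458 and 2195 CPM in DMSO 1 and 2 (log2 fold change 0.86 with SE 0.27, edgeR adjusted p = 0.615), Atf5 at 101 and 82.1 against 16.5 and 15.3 CPM and Egr1 at 93.6 and 186 against 365 and 634 CPM. Their fold changes of 0.86, 2.50 and -1.84 had the same sign as over all high-share cells, and none passed. The IgM cells are part of those cells, so the shared sign is no separate support. In DMSO 1 and 2 they held 531 of 856 and 429 of 658 UMIs of Hspa5. For Atf5 these were 6 of 8 and 3 of 6, and for Egr1 133 of 155 and 124 of 143. Ly6d did not: it stood at 379.7 and 364 CPM in BPTES 1 and 2 and at 310.3 and 593 CPM in DMSO 1 and 2, so that the groups overlapped (log2 fold change -0.26 with SE 0.34, edgeR adjusted p = 0.886, and 0.26 without DMSO replicate 2). Xbp1 stood at 1371 and 873 against 1411 and 2471 CPM (-0.79, SE 0.34).

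In low-share cells 0 of 8909 genes passed (edgeR), with 671 at an unadjusted p under 0.05, while DESeq2 called 10 and edgeR 9 to 92 with 1 library left out. The ER and secretory lists had medians of -0.0028 and -0.11 with 0 genes called in each. Xbp1 stood at 100.5 and 67.5 against 48.6 and 74.9 CPM (log2 fold change 0.45 with SE 0.28, edgeR adjusted p = 0.732), and Cd38 at 115 and 116 against 183 and 152 CPM (log2 fold change -0.53 with SE 0.19, edgeR adjusted p = 0.543).

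**Figure D4:**
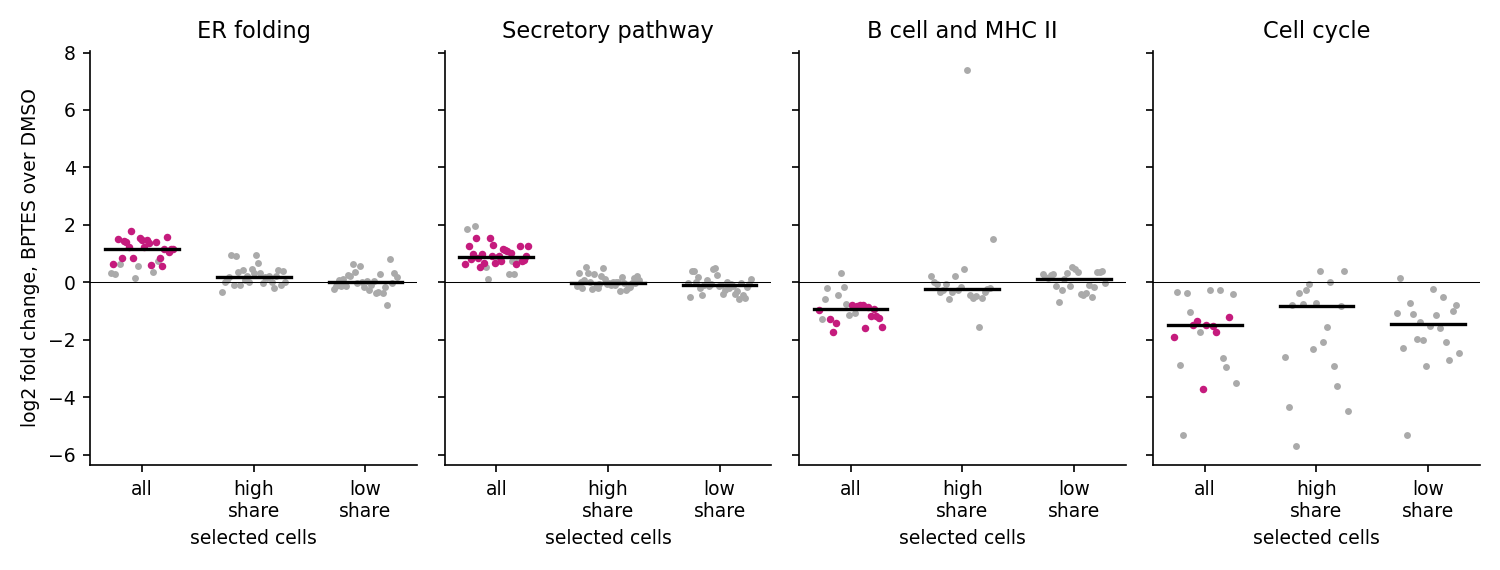
Each point is 1 gene of the list named above the panel, with its log2 fold change (BPTES over DMSO) on the y axis, in all selected cells, in high-share cells and in low-share cells. Magenta points passed the edgeR test at an adjusted p of 0.05 and black bars are medians. The ER median, without the rule genes, is 1.15 in all selected cells, 0.20 in high-share cells and -0.0028 in low-share cells, and the secretory median is 0.89, -0.0075 and -0.11.

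Ccr10 and Vpreb3 were higher and Spon1 was lower in IgA than in IgM high-share cells in each of the 10 alternatives that could change this fit, while most other calls were lost without predicted doublets. IgA and IgM cells were compared within each library, with the library as a block, and the classes were cut on immunoglobulin genes that were not tested. Only the BPTES libraries held 10 cells of each class (60 and 99 IgA, 28 and 19 IgM), so that the fit rests on 2 libraries with 1 residual degree of freedom. Leaving out a DMSO library, or allowing sums of 5 cells, therefore left it as it was. Of 9354 genes, 825 were called (8.82%), of which 397 were higher (4.24%) and 428 lower (4.58%) in IgA cells (edgeR). Over all selected cells the same contrast called 2013 of 10012 genes (20.1%). The count of 825 became 124 with DESeq2, 38 with thinned cells and 4 without predicted doublets (48 and 79 IgA, 24 and 12 IgM cells). The 4 were Ccr10, Vpreb3, Spon1 and Rims2, the last named after its value was seen. Every other gene named in this contrast, apart from S100a8, which was not tested there, missed the threshold without doublets, and so did all genes of the secretory, ER, respiratory chain, ATF4, immediate early and NF-kB lists. With thinned cells 4 of 30 secretory genes passed and 0 of the other lists just named, and Runx2, Edem2, Xbp1, Ndufa4, mt-Nd1, Cxcr4, Bcl2, Slc3a2 and Cd83 did not pass.

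The homing receptor Ccr10 was among the genes that were higher in IgA cells. It stood at 233 and 366 CPM in IgA cells and 3.69 and 10.3 CPM in IgM cells of BPTES 1 and 2 (log2 fold change 5.47 with SE 0.29, edgeR adjusted p = 9.31e-14). Vpreb3, a chaperone-like protein of the B lineage, stood at 359 and 420.3 against 13.5 and 6.88 CPM (5.16, SE 0.27) and Runx2 at 127 and 109 against 7.38 and 24.1 CPM (3.01, SE 0.35). In all 3 genes each IgA sum was above each IgM sum. The within-library difference had the same sign in both BPTES libraries for 63.5% of all genes tested. Tnfrsf17, which served to select the cells and is given with no test, stood at 329 and 329.7 CPM in IgA cells and 91.1 and 65.4 CPM in IgM cells. Ly6d stood at 1654 and 1373 against 364 and 351 CPM (2.08, SE 0.14), Bst2, an interferon-induced membrane protein, at 504 and 584 against 206 and 170.3 CPM (1.53, SE 0.16) and Cd79a, a signalling chain of the B cell receptor, at 1490 and 1425 against 577 and 404 CPM (1.59, SE 0.14). Of 29 identity and homing genes, 7 were higher and 3 lower in IgA cells.

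Of 34 secretory genes 10 were higher in IgA cells and 0 lower, with a median of 0.34 against 0.0054 over all genes. Of all genes tested, 4.24% were higher and 4.58% lower. Ssr4, a subunit of the translocon, stood at 2191 and 2558 CPM in IgA cells and 1056 and 1256 CPM in IgM cells (log2 fold change 1.04 with SE 0.12, edgeR adjusted p = 4.35e-07), Sec11c at 2201 and 2202 against 1189 and 1090.4 CPM (0.95, SE 0.12) and Lman1 at 588 and 572 against 325 and 328 CPM (0.83, SE 0.14). Of 29 ER folding genes 2 were higher, among them Edem2, which trims sugars of misfolded proteins (1.14, SE 0.14), and 2 lower. Xbp1 was higher as well, at 1828 and 1794 against 1316 and 841 CPM (0.78, SE 0.14). The respiratory chain was higher in 6 of 13 mitochondrial and 7 of 27 nuclear genes and lower in 0, for example Ndufa4, a subunit of the terminal oxidase, at 516 and 425 against 257 and 232 CPM (0.94, SE 0.15) and mt-Nd1 at 2777 and 2455 against 1798 and 1756 CPM (0.56, SE 0.11).

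IgM cells were higher in 6 of 21 ATF4 genes, 5 of 18 immediate early genes and 5 of 15 NF-kB genes, beside 4.58% of all genes tested. Slc3a2 stood at 640.4 and 647 CPM in IgA cells and 997 and 1047 CPM in IgM cells (log2 fold change -0.67 with SE 0.13, edgeR adjusted p = 0.00076). Cd83, a surface mark of activation, stood at 139 and 149 against 249.8 and 377 CPM (-1.10, SE 0.17) and Tnfaip3, the NF-kB inhibitor A20, at 43.4 and 44.2 against 94.8 and 124 CPM (-1.31, SE 0.22). Among single genes, IgM cells had more of Spon1, a matrix protein, at 4.82 and 5.89 against 281 and 108 CPM (log2 fold change -4.97 with SE 0.32, edgeR adjusted p = 3.46e-08), and of Wipf3, an actin regulator, at 17.7 and 1.31 against 203 and 84.3 CPM (-4.15, SE 0.46). Cxcr4, the bone marrow homing receptor, stood at 47.1 and 73.6 against 96 and 236 CPM (-1.39, SE 0.21) and Bcl2, which protects from apoptosis, at 168 and 164 against 281 and 282 CPM (-0.76, SE 0.17). The neutrophil gene S100a8 was also lower in IgA cells (39.1 and 80.8 against 162 and 681 CPM). The part of neutrophil transcripts in the list counts was not tested.

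The DMSO libraries, which did not enter this fit, held only 3 IgA cells each, and their values are a description. Without predicted doublets 0 and 2 IgA cells and 2 and 8 IgM cells were left in DMSO 1 and 2. Ccr10 stood there at 99.5 and 117 CPM in IgA cells and 10.7 and 35.7 CPM in IgM cells, Vpreb3 at 66.3 and 178 CPM in IgA cells and 13.4 and 49.1 CPM in IgM cells and Spon1 at 0 and 5.07 CPM in IgA cells and 88.3 and 71.4 CPM in IgM cells. IgA cells were on the same side as in the BPTES libraries in both DMSO libraries for Ccr10, Vpreb3, Runx2, Bst2, Ndufa4, Spon1, Wipf3, Cxcr4, Bcl2, Slc3a2 and Cd83. S100a8 had 0 UMIs in the IgA cells and 2 and 1 UMIs in the IgM cells there, too few for a comparison. In 1 of the 2 libraries only, this held for Ly6d, Tnfrsf17, Ssr4, Sec11c, Edem2, Lman1, Xbp1, Cd79a and Tnfaip3, and in neither for mt-Nd1.

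**Figure D5:**
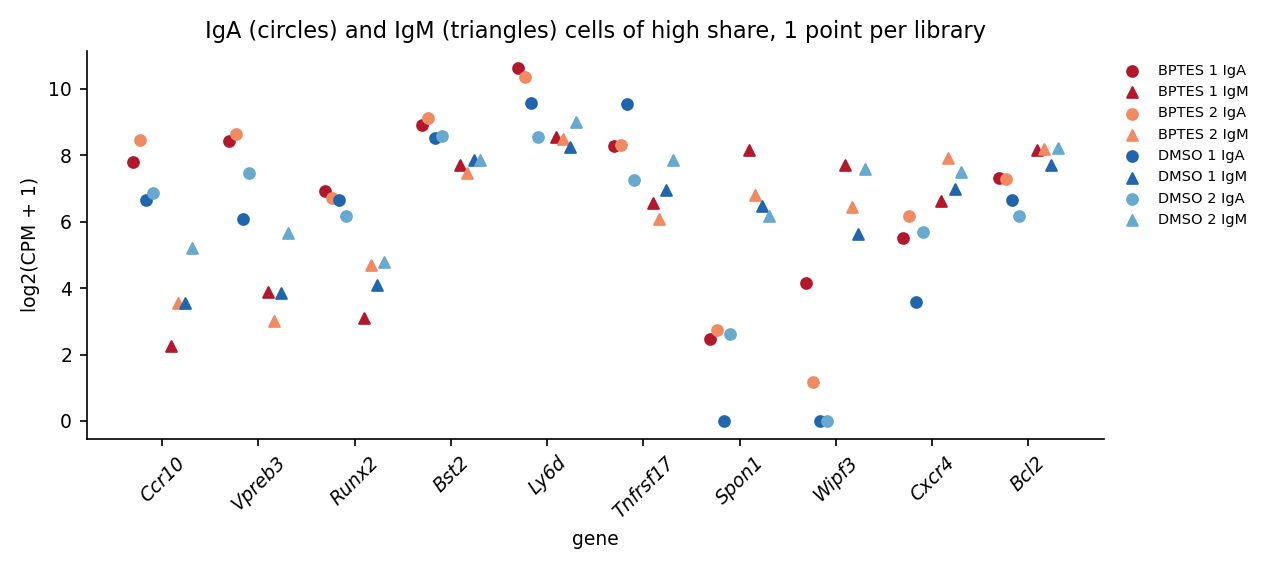
Each point is log2(CPM + 1) of 1 gene in the summed IgA (circles) or IgM (triangles) high-share cells of 1 library, with the DMSO IgA points resting on 3 cells each. Circles lie above triangles for Ccr10, Vpreb3, Runx2 and Bst2 and below them for Spon1, Wipf3, Cxcr4 and Bcl2 within each of the 4 libraries, while Ly6d and Tnfrsf17 have the circle below the triangle in 1 DMSO library.

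High-share cells also varied in MHC class II, which plasma cells are known to lose as they mature. Cells were thinned to 2000 non-immunoglobulin UMIs and called MHC II-high with at least 10 UMIs of Cd74, H2-Aa, H2-Ab1 and H2-Eb1 together. Cd74 alone stood at 9721, 11415, 11403 and 14457 CPM in high-share cells of BPTES 1 and 2 and DMSO 1 and 2. In T cells of the same libraries it stood at 7007, 6532, 8351 and 9018 CPM. T cells were not put through this cut, and whether the MHC II states are stages of maturity was not tested. MHC II-high cells were 71 of 103 and 91 of 123 high-share cells with enough UMIs under BPTES (68.9% and 74.0%) and 15 of 19 and 13 of 13 under DMSO (78.9% and 100%) (exact permutation p = 0.3333). The comparison within libraries rests on BPTES 1 and 2 (71 and 91 high cells, 32 and 32 low cells), and 487 of 9690 genes were called (5.03%), 383 higher (3.95%) and 104 lower (1.07%) in MHC II-high cells (edgeR). Over all selected cells the contrast called 573 of 10370 genes (5.53%). The largest changes were those of Arhgap22 (200 and 352 UMIs in the high cells) and Itga9 (170 and 314 UMIs), both with 0 UMIs in the low cells and both not called by DESeq2. Next came Mmp12, a macrophage elastase, with 575 and 850 UMIs in the high cells and 2 and 0 in the low cells. Mgl2, a lectin of macrophages and dendritic cells, had 251 and 472 UMIs against 1 and 0, and Cd209a, a dendritic cell lectin, 58 and 313 against 0 and 1. The macrophage gene Ms4a7 stood at 112 and 173 against 4 and 5.52 CPM (log2 fold change 4.88 with SE 0.33, edgeR adjusted p = 4.16e-10). Macrophage genes C1qa, C1qb, C1qc and Lyz2 exceeded 5 UMIs in 33 of 71 and 42 of 91 MHC II-high cells and in 8 of 32 and 6 of 32 MHC II-low cells of BPTES 1 and 2. Among cells with at most 5 such UMIs, 0 genes were called. Ciita, the transactivator of MHC class II, was called over all high-share cells (129.6 and 154 against 4 and 6.9 CPM, 4.69, SE 0.32), and Mki67 was lower in MHC II-high cells (-1.42, SE 0.22). The summed macrophage markers (8 of 8 detected) stood at 4831 and 4497 CPM in high-share cells under BPTES and 4441 and 4475 CPM under DMSO, and at 4531 to 9480 CPM in T cells.

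B cells and T cells of the same libraries gave a reference. B cells (111, 121, 97 and 87 per library) and T cells (1121, 1235, 1388 and 1412) were taken by their own genes. Selected cells differed from B cells in 3085 of 10287 genes (30%, edgeR), with Xbp1 at 4.37 (SE 0.35) and Hspa5 at 1.45 (SE 0.26) on the log2 scale, the genes of both selection rules left out. The treatment effect was then compared between the sets by an interaction term. Xbp1 stood at 39.2 and 38.4 CPM in BPTES B cells and 47.6 and 45.3 CPM in DMSO B cells, and Hspa5 at 684 and 687 against 652 and 671 CPM. The log2 effect in selected cells exceeded that in B cells by 1.52 for Xbp1 (SE 0.23, edgeR adjusted p = 0.0147) and by 1.18 for Hspa5 (SE 0.18, edgeR adjusted p = 0.0147). In all, the effect differed from that in B cells for 217 of 10299 genes (2.11%) and from that in T cells for 400 of 14675 genes (2.73%). A larger effect in selected cells than in B cells was called for 1.01% of genes, among them 14 of 29 ER and 13 of 34 secretory genes. Against T cells it was called for 1.75% of genes, among them 21 of 29 ER and 23 of 34 secretory genes. These interactions used all selected cells, whose mix differed between the groups as given above, and leaving out DMSO replicate 1 took the count against T cells to 0, and leaving out DMSO replicate 2 to 14. Within the high-share cells alone, in fits added after seeing the data, the interaction called 9 of 10184 genes against B cells (0.0884%) and 6 of 14580 against T cells (0.0412%), with 792 and 1012 at an unadjusted p under 0.05 and 22 and 31 called by DESeq2. There the effect on Xbp1 differed from that in B cells by 0.01 (SE 0.26, edgeR adjusted p = 1), that on Cd38 by -0.25 (SE 0.54) and that on Hspa5 by 0.88 (SE 0.22, edgeR adjusted p = 0.214), and none of the 3 passed. Leaving out any 1 library raised these counts, to 83 to 96 genes against B cells and 45 to 92 against T cells, and without DMSO replicate 1 the value for Cd38 was 1.51.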

How the data were processed

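UMI counts per gene and cell barcode of 4 libraries (10x Genomics 3' chemistry) were used as the authors deposited them, as raw counts. The submitters' processing notes name Cell Ranger 8.0.1 and mm10. Barcodes with at least 500 UMIs, 300 genes and at most 50% mitochondrial UMIs were kept and the cells selected by the rule given above. The members and the gene lists were chosen with earlier results of these data known, and the 10% line on immunoglobulin share, with every fit within the cells on either side of it, after seeing the data.

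The counts of selected cells were summed per library without 393 immunoglobulin genes and Jchain, and tested with edgeR 4.0.16 (R 4.3.3, limma 3.58.1): filterByExpr, TMM scaling, quasi-likelihood fit and Benjamini-Hochberg adjustment over all genes tested, with a threshold of 0.05. IgA against IgM and the MHC II states were fitted with the library as a block, in libraries with at least 10 cells in both sums. Comparisons of BPTES with DMSO had no such minimum, and the smallest sum in them was of 9 cells (IgM, DMSO 2). CPM values are scaled by TMM factors, except in the comparison of high-share with low-share cells, for the marker sums and for the DMSO IgA and IgM cells, where they are unscaled. DESeq2 1.42.0 was an alternative. Named genes were, per comparison, up to 12 per direction with the largest change past the threshold (mean log2 CPM of at least 5, groups without overlap), up to 4 per gene list with the smallest p (2 where none passed), and a fixed set that includes Xbp1, Hspa5, Ccr10 and the rule genes. Ly6d, Egr1, Dnajb9, Prg2, Slpi, Cd28, Pycr1, Rims2 and the genes of the promoter search were added after their values were seen. Counts over gene lists leave out the 6 rule genes, except in the promoter search. Shares were compared over libraries by exact permutation tests (scipy 1.17.1), with exact (Clopper-Pearson) 95% intervals. Barcodes were ranked by Scrublet doublet score (scanpy 1.11.5), and Scrublet's own threshold was not used. The highest were taken as predicted doublets, as many as 0.4% of the passing barcodes per 1000 deposited barcodes. That made 1040, 837, 1055 and 935 barcodes in BPTES 1, BPTES 2, DMSO 1 and DMSO 2. Predicted doublets were kept in the main results. The scripts were tested on simulated data, with a dispersion set in advance and not taken from these data. For log2 changes of 1 and 2, the fit of high-share cells recovered 13 and 77 of 100 genes. The fit of all selected cells recovered 28 and 95 of 100, and its interaction with B cells 2 and 58 of 100. All libraries were used.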

Additional observations from a re-analysis of the deposited data

Results flagged for a closer look

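The treatment effect in the selected cells differed from that in B cells for 217 genes and from that in T cells for 400 genes, by an interaction term in edgeR. Of the genes described above, the effect exceeded that in B cells by 1.52 (Xbp1) and 1.18 (Hspa5) on the log2 scale, and for Cd38 the difference of effects was -1.51. These values cover all selected cells, of which high-share cells were 73.8% under BPTES and 29.8% under DMSO. Within the high-share cells alone the same terms called 9 genes against B cells and 6 against T cells, and the differences were 0.0074 for Xbp1, 0.88 for Hspa5 and -0.25 for Cd38, of which none passed. Within the low-share cells the term was not fitted.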

How the results depend on the processing

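The number of selected cells stayed higher under BPTES in every alternative run, with log2 ratios from 1.21 (Lrp2 and Slc34a1 at 0) to 2.47 (at least 200 UMIs of Igkc and Jchain) and of 1.45 to 1.69 with 1 library left out. Counts of called genes moved more. Over all selected cells (743 genes) the count was 1272 with no low-count filter, 95 to 1258 with 1 library left out, 126 with at least 200 UMIs of Igkc and Jchain, 45 with Lrp2 and Slc34a1 at 0, and 225 with cells thinned to 2000 UMIs. Within high-share cells (1 gene) it was 37 with DESeq2, 325 with no low-count filter, 12 to 69 with 1 library left out, 4 with at least 200 UMIs, 0 without predicted doublets, 0 with Lrp2 and Slc34a1 at 0, 12 with immunoglobulin genes kept, 8 after thinning, 7 with a 20% line and 0 with at most 5 macrophage UMIs. Within low-share cells (0 genes) it was, in the same order of settings, 10 with DESeq2, 208 with no filter, 9 to 92 with 1 library left out, 7 without doublets, 1 with Lrp2 and Slc34a1 at 0, 22 after thinning and 13 with at most 5 macrophage UMIs. For IgM high-share cells (1 gene) it was 4 with DESeq2, 4 with RLE scaling, 212 with no filter, 44 to 594 with 1 library left out, 0 without doublets, 2 with Lrp2 and Slc34a1 at 0, 7 with immunoglobulin genes kept, 2 after thinning and 2 with at most 5 macrophage UMIs.

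IgA against IgM high-share cells (825 genes) gave 124 with DESeq2, 4 without doublets, 38 after thinning and 439 with at most 5 macrophage UMIs. Over all selected cells the same contrast (2013 genes) gave 554 with DESeq2, 518 with at least 200 UMIs, 172 without doublets, 695 with Lrp2 and Slc34a1 at 0 and 625 after thinning. The MHC II contrast in high-share cells (487 genes) gave 109 with DESeq2, 138 without doublets, 77 with Lrp2 and Slc34a1 at 0 and 0 with at most 5 macrophage UMIs. Over all selected cells it (573 genes) gave 242 with DESeq2, 1139 with no filter, 353 with at least 200 UMIs, 178 without doublets, 919 with Lrp2 and Slc34a1 at 0, 65 with an MHC II minimum of 5 UMIs and 260 with at most 5 macrophage UMIs. Against B cells (3085 genes) the count was 1334 to 2894 with 1 library left out and 891 with Lrp2 and Slc34a1 at 0. The interaction with B cells (217 genes) gave 142 with DESeq2, 684 with no filter, 9 to 719 with 1 library left out, 123 with at least 200 UMIs, 803 without doublets, 29 with Lrp2 and Slc34a1 at 0 and 492 with at most 5 macrophage UMIs. That with T cells (400 genes) gave 1259 with no filter, 0 to 768 with 1 library left out, 76 with at least 200 UMIs, 668 without doublets and 209 with Lrp2 and Slc34a1 at 0. Within high-share cells the interaction with B cells (9 genes) gave 22 with DESeq2, 200 with no filter, 83 to 96 with 1 library left out, 127 without doublets and 1 with Lrp2 and Slc34a1 at 0. That with T cells (6 genes) gave 31 with DESeq2, 13 with RLE scaling, 222 with no filter, 45 to 92 with 1 library left out, 20 without doublets, 19 with Lrp2 and Slc34a1 at 0, 14 with a 20% line and 12 with at most 5 macrophage UMIs. The difference in the IgG share of the selected cells (BPTES minus DMSO), -0.141 percentage points, turned to 0.933 without BPTES replicate 2 and to 2.06 without DMSO replicate 1, over a range of -2.34 to 2.06. The IgA, IgM and MHC II contrasts could not be fitted without a BPTES library. The cause of these moves was not tested.

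With the replicate number as a block, 776 genes were called over all selected cells (647 shared with the fit without it), 22 in high-share cells, 0 in low-share cells and 0 in IgM high-share cells, where S100a9 lost its call (edgeR adjusted p = 0.384). The deviations of same-numbered libraries had a correlation across genes of r = 0.0402 over all selected cells and -0.00841 in high-share cells. These sums carry much counting noise, so the values cannot decide whether same-numbered libraries shared a day or litter. The labels do not say.

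Of 71 called pairs of gene and comparison, 59 lost the call in at least 1 alternative. Of 1689 alternative values 35 changed direction. In high-share cells these were Xbp1 (0.62), Prdm1 (0.25) and Txndc5 (0.24) with Lrp2 and Slc34a1 at 0, Sdc1 (-0.11) and Prdm1 (0.73) after thinning, Sdc1 (-0.12) with at most 5 macrophage UMIs, Prdm1 (0.0161) without doublets, Mzb1 and Mki67 without DMSO replicate 1, and Prdm1 without BPTES replicate 2. With 1 library left out, Mzb1 ranged from -0.0491 to 0.269, Prdm1 from -0.305 to 0.0182 and Mki67 from -3.15 to 0.237. In low-share cells Cd38 turned to 0.0924 after thinning, and in IgM high-share cells Xbp1 to 0.51 with Lrp2 and Slc34a1 at 0 and Ly6d (-0.26) to 0.239 at that setting, to 0.165 without doublets and to 0.136 with at most 5 macrophage UMIs, over -0.681 to 0.262 with 1 library left out. In the interactions of high-share cells, the difference from B cells changed sign for Xbp1 with DESeq2 (-0.0104), RLE scaling (-0.0109) and a mitochondrial limit of 25% (-0.0057) and ranged from -0.176 to 0.193 with 1 library left out. For Cd38 it was 0.0338 without doublets and 0.137 with Lrp2 and Slc34a1 at 0 and ranged from -0.946 to 1.51 with 1 library left out. The difference from T cells for Xbp1 was 0.207 without doublets and 1.09 with Lrp2 and Slc34a1 at 0. Of the promoter genes, Ero1lb turned to -0.160 after thinning and to -0.194 with at most 5 macrophage UMIs over all selected cells. In high-share cells Calr turned to -0.221 after thinning and to -0.0169 with a 20% line, over -0.157 to 0.237 with 1 library left out, Canx to -0.0251 after thinning, and Pdia6 to -0.0257 without doublets and to -0.0263 with a 20% line, over -0.119 to 0.175. None of these 35 had been called. The 19 and 13 high-share cells of the DMSO libraries limit every comparison within that set. With Lrp2 and Slc34a1 at 0 only 23 and 27 against 8 and 1 high-share cells were left (IgM 11 and 1 against 7 and 1), and without doublets 2 and 11 in the DMSO libraries (IgM 2 and 8), so the high-share and IgM values at these settings rest on nearly 1 library and say nothing about stability.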

Other observations

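The kappa variable genes of the high-share cells were spread over many segments. In the BPTES libraries 81 and 105 cells could be assigned to 1 segment, with 39 and 45 distinct segments, and in the DMSO libraries 18 and 13 cells with 12 and 8. The most frequent segment was Igkv1-117 in BPTES 1 (11 cells), Igkv6-15 in BPTES 2 (9 cells), Igkv3-2 in DMSO 1 (4 cells) and Igkv1-110 in DMSO 2 (4 cells). These leads were small: in BPTES 2 Igkv15-103 and Igkv6-23 had 8 cells each. Igkv4-55 ranked second in both BPTES 1 (8 cells) and DMSO 1 (3 cells).

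Il1rapl2, a receptor of the interleukin-1 receptor family, was found almost wholly in a few BPTES cells: 163 and 260 UMIs in the high-share cells of BPTES 1 and 2, and 0 and 0 in the DMSO libraries. Cells with at least 5 UMIs of it were 1 IgA and 1 unassigned cell in BPTES 1 and 6 IgA cells in BPTES 2. IgG cells were too few for a comparison with IgA cells, since only 1 library held 10 of them. Cycling cells were 2 of 103, 3 of 123, 2 of 19 and 0 of 13 high-share cells with enough UMIs in BPTES 1, BPTES 2, DMSO 1 and DMSO 2 (1.94%, 2.44%, 10.5% and 0%). The exact (Clopper-Pearson) 95% interval in DMSO 1 was 1.30% to 33.1%, and both of the high-share cells left there without predicted doublets were cycling.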
